A study of Mus musculus with 56 samples.

Results

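The core circadian clock genes Arntl, Clock, Npas2, Per1, Per2, Per3, Cry1 and Cry2 were followed on 56 microarrays of whole mouse colon and whole jejunum, 1 array per mouse according to the design text. The genes were taken as a list, without a cutoff on measured values. That list was chosen with earlier results of these data known. In each tissue each gene was read from its single-gene probe set with the highest mean signal. These 8 genes stood among 18194 genes measured, and all 8 were among the 13646 genes per tissue that passed the filter on low signal. Tweak_KO mice (KO) lack Tweak, a TNF family cytokine whose gene is Tnfsf12, and wild type (WT) mice were set against them. Both genotypes had the BALB/C strain, every group carried a label of 3 Gy of ionizing radiation, and tissue was taken 0, 6 or 24 h later. Whether mice of the 0 h groups had been irradiated is not given in the labels, nor are age, the light cycle, the clock time of irradiation or harvest, or how the KO allele was made. The KO groups held 5, 5 and 5 colon arrays and 5, 4 and 5 jejunum arrays at 0, 6 and 24 h, and the WT groups held 5, 4 and 4 colon arrays and 5, 5 and 4 jejunum arrays. Precision is limited by how many arrays each group had. Because whole tissue was used, fewer cells of a type and less RNA per cell cannot be told apart.

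The circadian clock of mammalian cells is a feedback loop of transcription. The proteins of Arntl (also called Bmal1) and of Clock, or of the Clock paralog Npas2, form a pair that binds E-box sequences and activates the Per and Cry genes, whose proteins then inhibit that pair. A second loop runs through the REV-ERB repressors Nr1d1 and Nr1d2 and the ROR activators, which act on ROR elements of Arntl, and the bZIP factors Dbp, Tef and Hlf act on D-boxes, where Nfil3 represses. In mouse tissues Arntl and the Per genes are known to reach their highest transcript levels at nearly opposite times of day, and the clock of the gut is known to be set by feeding.

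Promoters of the genes that were called at 6 h are shown so that matches to the binding sequences of these factors can be read. For Per1 and Arntl, the listed promoter that had a match is shown. The RefSeq promoter table (build GRCm38.p6, from 250 bases before to 50 bases after each annotated start, given 5′ to 3′ on the gene's strand) held 7 of the 8 genes, all but Per2, with 11 promoters in all. The capitals mark matches to an E-box (CACGTG), an E-box variant (CACGTT), a D-box (TTATGTAA or TTATGCAA) or a ROR element (TAGGTCA or TGGGTCA), searched on both strands together with the cAMP response element TGACGTCA. The 4 sequences lie at chr11:69098699-69098998 (plus strand), chr4:151044616-151044915 (minus strand), chr2:92434020-92434319 (minus strand) and chr7:113207261-113207560 (plus strand) and are given in that order.
Per1: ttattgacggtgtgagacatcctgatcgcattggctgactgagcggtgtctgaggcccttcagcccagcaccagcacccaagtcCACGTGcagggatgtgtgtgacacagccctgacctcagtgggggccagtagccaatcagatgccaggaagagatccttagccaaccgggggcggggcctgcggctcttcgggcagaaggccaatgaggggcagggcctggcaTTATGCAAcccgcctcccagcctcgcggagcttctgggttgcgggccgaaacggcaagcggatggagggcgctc
Per3: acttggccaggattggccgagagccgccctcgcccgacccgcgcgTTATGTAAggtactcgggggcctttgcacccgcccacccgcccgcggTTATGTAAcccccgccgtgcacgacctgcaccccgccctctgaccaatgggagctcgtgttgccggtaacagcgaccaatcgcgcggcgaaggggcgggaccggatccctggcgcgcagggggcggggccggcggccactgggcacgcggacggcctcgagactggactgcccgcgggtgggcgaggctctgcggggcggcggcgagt
Cry2: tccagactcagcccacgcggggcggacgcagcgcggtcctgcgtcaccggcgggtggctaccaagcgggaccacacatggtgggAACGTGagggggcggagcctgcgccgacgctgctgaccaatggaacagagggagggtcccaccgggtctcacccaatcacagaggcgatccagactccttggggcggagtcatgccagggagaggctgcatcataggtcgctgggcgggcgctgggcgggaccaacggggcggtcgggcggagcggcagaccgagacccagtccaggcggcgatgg
Arntl: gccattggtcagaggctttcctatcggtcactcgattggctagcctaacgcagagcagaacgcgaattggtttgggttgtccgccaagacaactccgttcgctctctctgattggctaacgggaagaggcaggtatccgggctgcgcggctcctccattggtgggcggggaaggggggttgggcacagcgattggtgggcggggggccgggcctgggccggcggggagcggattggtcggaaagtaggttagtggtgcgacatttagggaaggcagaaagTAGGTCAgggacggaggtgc
Per1, whose protein is a repressor of the loop, had an E-box at -166 and a D-box at -24, counted from the annotated start. Per3, a further Per gene, had 2 D-boxes, at -205 and -158. Cry2, a partner of the PER proteins in repression, had an E-box variant at -166 on the other strand. The Arntl promoter had a ROR element at +30, and its other listed promoter, which starts 5′ of the one shown, had no match in its window. Among promoters not shown, that of Cry1 had an E-box at -60 and an E-box variant at -79, and those of Clock and Npas2 and the other one of Per1 had no match. Of all 32851 promoters in the table, 7.15% held an E-box, 4.68% the variant, 1.66% a D-box, 6.45% a ROR element and 1.79% a cAMP response element. A match is a description of these letters, and binding was not measured.

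All values below are the authors' log2 signals, and a difference of 1 is a factor of 2 in signal. The 2 tissues were normalized separately and were not tested against each other, and signals of different probe sets were not set against each other. Colon arrays carried colon epithelial transcripts throughout (Hoxb13 8.94 to 10.8 in colon and 2.32 to 2.66 in jejunum) and jejunum arrays carried small intestinal ones (Fabp1 13.1 to 15.8). At the probe set for Tnfsf12 and its read-through transcript, the signal was 2.28 to 2.81 in KO colon and 3.71 to 4.67 in WT colon, and 2.34 to 2.75 in KO jejunum and 2.77 to 4.09 in WT jejunum. Another probe set, annotated to Tnfsf12, its neighbour Tnfsf13 and the read-through, had 6.93 to 8.07 in KO colon and 7.16 to 8.01 in WT colon, and 5.96 to 7.74 in KO jejunum and 5.22 to 7.86 in WT jejunum, and so did not separate the genotypes. Some arrays stood apart. KO colon 0 h replicate 3 carried p53 target genes at 7.84 on average. The remaining KO colon arrays labelled 0 h had 6.48 to 6.57 and those labelled 24 h had 7.73 to 7.96, so this array goes against its 0 h label, and WT colon 0 h replicate 2 had small intestinal markers at 12.4, where the rest of its group had 6.52 to 9.73. KO jejunum 0 h replicate 3 and WT jejunum 24 h replicate 2 had proximal small intestinal markers at 8.62 and 8.63, against 10.6 to 11.7 in the other jejunum arrays. Without these 4 arrays, all calls between genotypes at 6 h were kept, and the calls that were lost are named beside their values. No 6 h array was among the 4, so leaving them out could change the spread of the fit but not the 6 h differences. By the names of the array files, the WT arrays formed 1 batch and the KO arrays a second one. In each tissue a single KO array, 0 h replicate 1, lay in the batch of the WT arrays.

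At 6 h the Per genes and Cry2 were higher in KO colon than in WT colon. In limma, 4 of the 8 genes were called at an adjusted p under 0.05 (Benjamini-Hochberg over all genes), all 4 of them higher, against a background of 0.879% of all genes. Arrays of the 2 groups did not overlap for 7 of the 8 genes, against 6.98% of all genes. The median difference of the 8 genes was 0.82, and that of all genes was -0.01.

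Per2, a repressor of the loop that also responds to other signals, had 7.65, 7.36, 7.24, 6.19 and 8.12 in the KO colon arrays at 6 h, against 3.05, 2.45, 4.18 and 3.88 in the WT colon arrays. Every KO array lay above every WT array, by at least 2 log2 units. The difference was 3.92 ± 0.72 (SE), a 15.2-fold higher signal, with an adjusted p of 0.00652. The lowest WT value, 2.45, lay near the colon array floor of 2.28, which left little room for a lower reading and limits the fold. The other WT values were 3.05 to 4.18. Per3, the third Per gene, had 6.76, 6.76, 6.65, 7.47 and 6.09 in KO colon at 6 h, and 4.04, 4.11, 4.30 and 4.04 in the WT arrays. Again the groups did not overlap, and the difference was 2.62 ± 0.49 (adjusted p = 0.00753). Per1, which is also known as an immediate response gene, had 6.44, 6.90, 7.12, 7.85 and 6.75 in KO colon, against 4.81, 4.69, 6.11 and 5.44 in WT colon. The gap between the lowest KO and the highest WT array was small for Per1, and the difference was 1.75 ± 0.30 (adjusted p = 0.00368). Cry2 had 6.91 to 7.35 in KO colon and 5.59 to 5.86 in WT colon, with a difference of 1.39 ± 0.26 (adjusted p = 0.00788). Cry1, the other cryptochrome, had 6.97 to 7.91 in KO colon and 6.93 to 7.20 in WT colon, and its difference of 0.25 had a 95% interval of -0.28 to 0.78 (adjusted p = 0.76).

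The activators of the loop had lower values in KO colon at 6 h, and none of the 3 was called. Arntl had 5.36, 5.77, 5.02, 4.65 and 5.63 in KO colon, against 7.72, 7.63, 7.58 and 7.68 in WT colon. The groups lay far apart, with a difference of -2.37 ± 0.61, but the adjusted p was 0.0655 (unadjusted p = 0.000681). The fit takes 1 spread from all 6 colon groups, and Arntl had an SD of 0.455 in KO colon and 0.0638 in WT colon at 6 h, against 1.68 in KO colon at 0 h. At the second Arntl probe set, which had a lower mean signal (3.32 over colon arrays, against 6.70 at the first), the difference was -0.94 and was called (adjusted p = 0.0443). Clock, the DNA-binding partner of Arntl, had 7.79 to 8.39 in KO colon and 8.48 to 8.62 in WT colon, with a difference of -0.44 ± 0.11 (adjusted p = 0.0518), and was called without KO colon 6 h replicate 5 (-0.50, adjusted p = 0.0189). Npas2, the paralog of Clock, had 5.47 to 6.15 in KO colon and 6.79 to 7.25 in WT colon, with a difference of -1.30 ± 0.40 (adjusted p = 0.146).

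**Figure D1:**
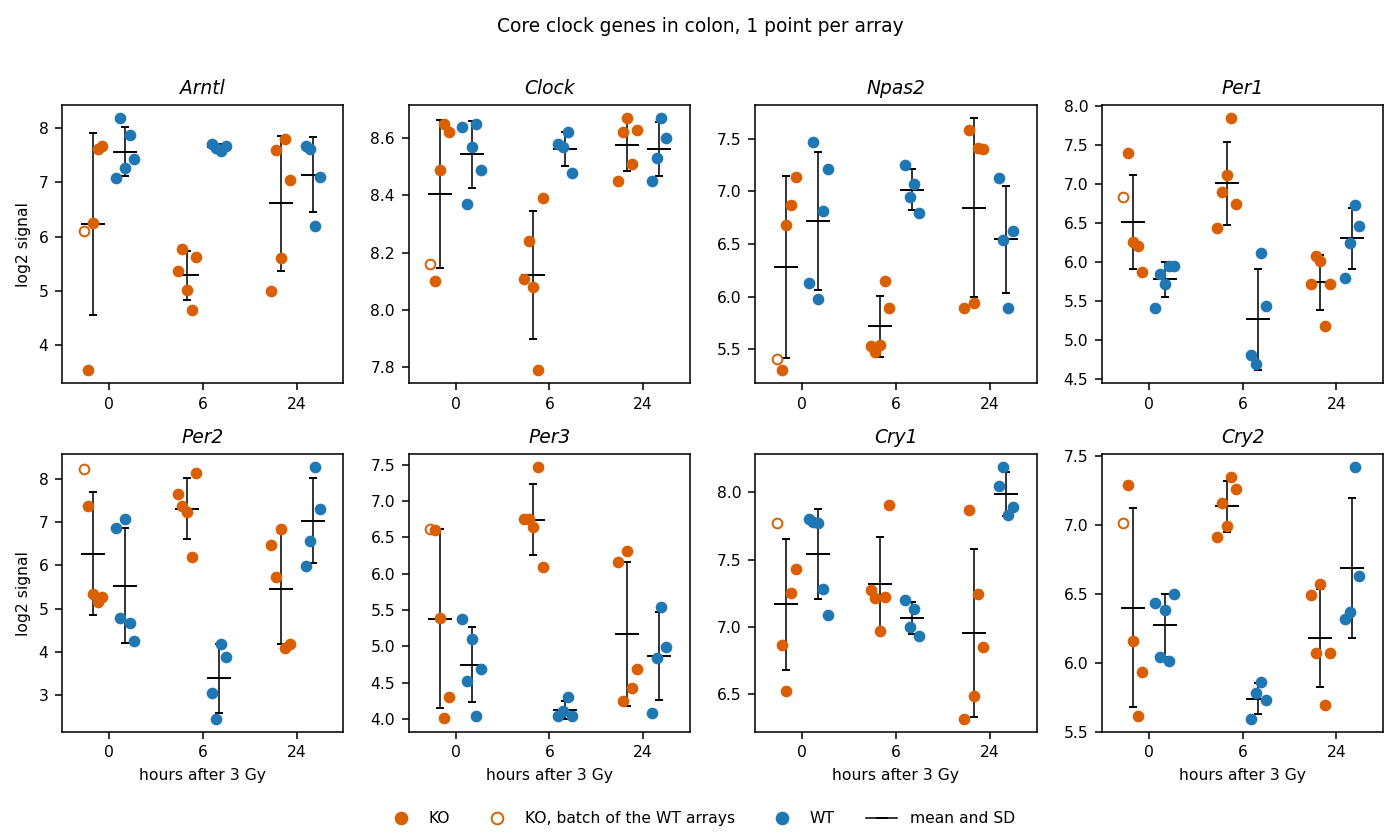
Log2 signal of each core clock gene (y axis) on every colon array at 0, 6 and 24 h after 3 Gy (x axis), with KO in orange, WT in blue, the KO array in the batch of the WT arrays as an open circle, and bars for the mean and SD. At 6 h the KO arrays lie above the WT arrays for Per1, Per2, Per3 and Cry2 and below them for Arntl, Clock and Npas2, whereas KO arrays at 0 and 24 h spread over a wide range.

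In jejunum at 6 h, Arntl was lower and Per2, Per3 and Cry2 were higher in KO than in WT. These 4 of 8 genes were called, against a background of 2.14% of all genes, and the arrays of the same 4 did not overlap, against 6.72% of all genes. The median difference of the 8 genes was 1.03.

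Arntl had 3.98, 4.40, 3.41 and 3.66 in KO jejunum at 6 h, against 6.74, 6.10, 6.92, 6.82 and 6.77 in WT jejunum. The gap between the groups was wide, and the difference was -2.81 ± 0.42 (7.0-fold lower, adjusted p = 0.000668). At the second Arntl probe set, whose mean over jejunum arrays was 3.25 against 6.12 at the first, the difference was -0.16 and was not called (adjusted p = 0.818). Per2 had 6.38, 5.36, 6.37 and 6.21 in KO jejunum and 3.52, 3.52, 3.19, 3.98 and 3.26 in WT jejunum. Its difference was 2.59 ± 0.51 (6.00-fold, adjusted p = 0.00793). Per3 had 4.90, 3.33, 5.32 and 4.78 in KO jejunum, and 2.72 to 2.97 in WT jejunum. The WT values lay near the array floor of 2.32, which left little room for a lower WT reading, and the difference was 1.73 ± 0.31 (adjusted p = 0.00361). Cry2 had 6.15, 5.74, 7.98 and 6.14 in KO jejunum, against 4.43 to 5.27 in WT jejunum, a difference of 1.75 ± 0.35 (adjusted p = 0.00825). Per1 had 4.32 to 6.47 in KO jejunum and 2.63 to 4.50 in WT jejunum, which overlap, and its difference of 1.56 ± 0.44 was not called (adjusted p = 0.0598). It was called without WT 6 h replicate 4 (1.79, adjusted p = 0.024), without KO 6 h replicate 3 (1.84, adjusted p = 0.0428), and without the arrays that stood apart (1.56, adjusted p = 0.0306).

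The other 3 genes were not called in jejunum at 6 h. Npas2 had 5.64 to 6.23 in KO jejunum and 6.20 to 7.39 in WT jejunum, with a difference of -0.96 ± 0.31 (adjusted p = 0.0999), and was called without WT 6 h replicate 3 (-1.14, adjusted p = 0.0459). Clock had 7.65 to 7.98 in KO jejunum and 7.72 to 8.01 in WT jejunum, and the 95% interval of its difference was -0.20 to 0.20. Cry1 had 6.58 to 6.90 in KO jejunum and 5.48 to 6.93 in WT jejunum, with an interval of -0.15 to 1.13.

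**Figure D2:**
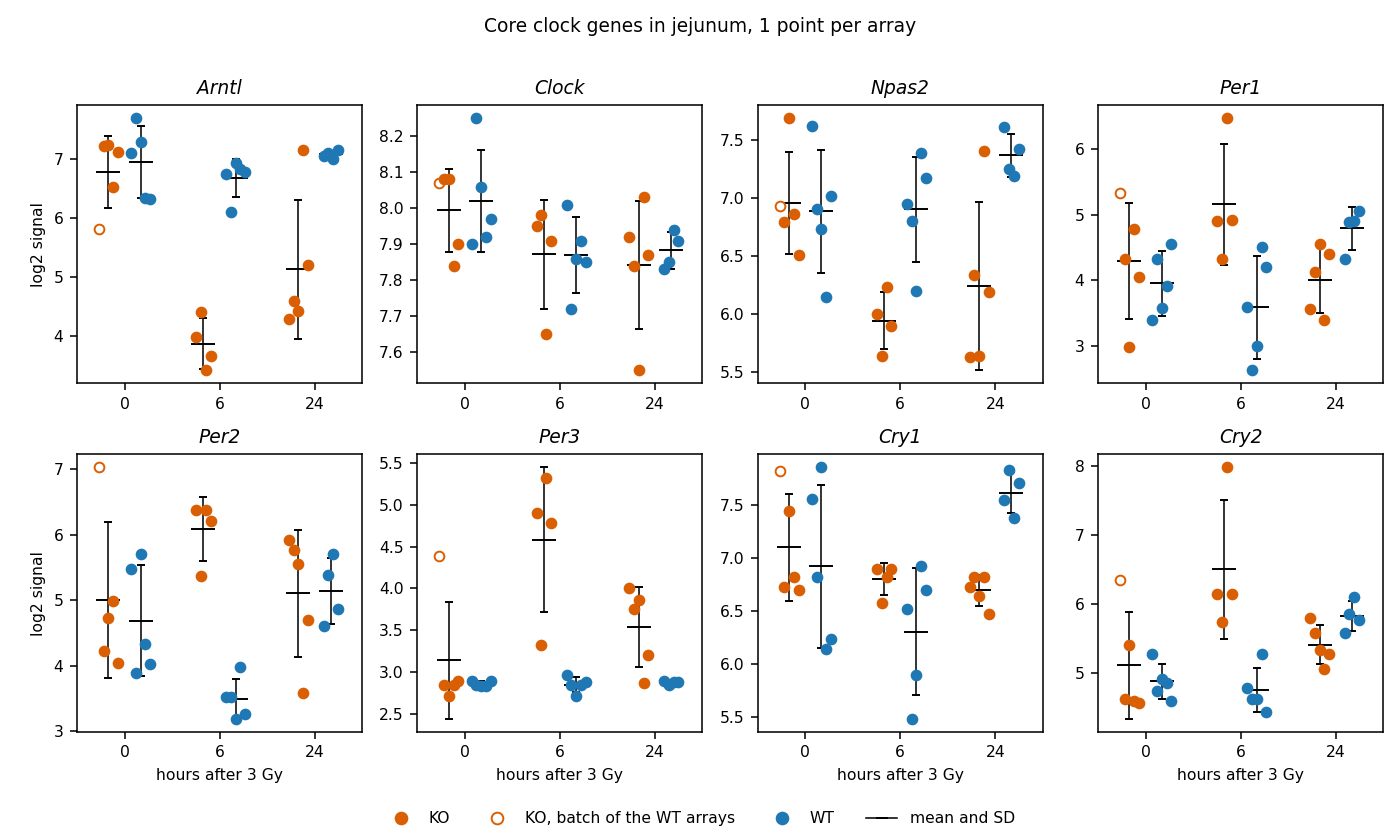
Log2 signal of each core clock gene (y axis) on every jejunum array at 0, 6 and 24 h after 3 Gy (x axis), with KO in orange, WT in blue, the KO array in the batch of the WT arrays as an open circle, and bars for the mean and SD. At 6 h Arntl lies at 3.41 to 4.40 in KO arrays and at 6.10 to 6.92 in WT arrays, and Per3 leaves the level of 2.72 to 2.97 only in KO arrays.

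Batch moved with genotype at 6 h, since no KO array of that time lay in the batch of the WT arrays. With batch as a term, the genotype difference of a tissue rests on KO 0 h replicate 1, the 1 KO array that shared a batch with WT. In colon at 6 h, 1 of the 4 calls remained under that fit, Per2 at 6.36 ± 1.31 (adjusted p = 0.0467). Per3 was at 4.17 (adjusted p = 0.0604), Cry2 at 2.16 (adjusted p = 0.0714) and Per1 at 2.15 (adjusted p = 0.194). In jejunum all 4 calls were kept and Per1 was added, with Arntl at -4.01 (adjusted p = 0.00296), Per2 at 5.12 (adjusted p = 0.000412), Per3 at 3.29 (adjusted p = 0.000172), Cry2 at 3.30 (adjusted p = 0.00133) and Per1 at 2.85 (adjusted p = 0.0389). All of these differences were farther from 0 than those without the term.

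Within the shared batch at 0 h, the KO array could be set beside 5 WT arrays of each tissue, with no test. Per2 was 8.22 on that KO colon array and 4.26 to 7.06 on the WT colon arrays, and 7.03 on the KO jejunum array and 3.89 to 5.71 on the WT jejunum arrays. Arntl was 6.10 on the KO array and 7.09 to 8.19 on the WT arrays in colon, and 5.81 on the KO array and 6.31 to 7.69 on the WT arrays in jejunum. That array therefore lay outside the WT range in the direction of the 6 h difference in both tissues, as it also did for Per3 (6.62 on the KO array and 4.04 to 5.38 on the WT arrays in colon, 4.39 and 2.84 to 2.90 in jejunum). The KO 0 h arrays of the other batch did not share this pattern as a group. In colon, replicate 2 had Per2 at 7.38 and Arntl at 3.53. Replicate 3, the array that goes against its 0 h label, had Per2 at 5.35 and Arntl at 6.25, below the WT range. Replicates 4 and 5 had Per2 at 5.15 and 5.26 and Arntl at 7.61 and 7.68. In jejunum the 4 arrays had Per2 at 4.04 to 4.99 and Arntl at 6.52 to 7.23.

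Markers of other tissues and responses were read on the same arrays. The mean of 6 skeletal muscle genes was 5.17 to 6.96 in KO colon and 3.05 to 6.36 in WT colon at 6 h. Of these, 1 of 6 was called higher, against 0.879% of all genes, and their part in the colon result was not tested. In jejunum these genes lay at a mean of 2.57 to 2.80 at 6 h, near the floor. The mean of 4 fasting genes at 6 h was 6.31, 6.43, 9.09 and 6.94 in KO jejunum and 7.46 to 8.38 in WT jejunum, and 6.43 to 7.28 in KO colon and 6.31 to 6.65 in WT colon. In each tissue 0 of the 4 were called in either direction, with median differences of -0.73 in jejunum and 0.21 in colon, and their part in the 6 h result was not tested. The mean of 9 glucocorticoid response genes was highest on KO 6 h replicate 4 in both tissues. It was 10.4 there in colon, against 9.18 to 9.49 on the other KO 6 h arrays and 9.07 to 9.54 on the WT 6 h arrays. In jejunum it was 10.3, against 8.24 to 8.64 on the other KO 6 h arrays and 7.89 to 8.76 on the WT 6 h arrays. The same replicate had the highest Per1 of its group, 7.85 in colon and 6.47 in jejunum, and the highest Cry2 in jejunum, 7.98. Without it all 4 calls were kept in each tissue, with Per1 at 1.54 in colon (adjusted p = 0.0123) and Cry2 at 1.26 in jejunum (adjusted p = 0.0376). Per1 lies on chromosome 11, as does Tnfsf12, with 48 annotated genes between them, and the part of the region around the targeted gene was not tested.

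The genotypes were next set against each other at 0 and 24 h. At 0 h no core clock gene was called in either tissue, where 2.07% of all genes were called in colon and 0.183% in jejunum. At an unadjusted p under 0.05 there were 2 such genes in colon and 0 in jejunum, and 2292 and 1167 of all 13646 genes. Arntl was at 6.10, 3.53, 6.25, 7.61 and 7.68 in KO colon and at 7.09, 8.19, 7.26, 7.88 and 7.44 in WT colon. The KO arrays reached from below the WT range into it, and the difference of -1.34 ± 0.58 had an adjusted p of 0.233. With batch as a term Per3 was called in jejunum (1.53, adjusted p = 0.0392), which sets the 1 KO array at 4.39 against WT arrays at 2.84 to 2.90. Without batch its difference was 0.28 ± 0.29 (adjusted p = 0.836).

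At 24 h no core clock gene was called in colon, against 0.469% of all genes. Of the 8, 2 had an unadjusted p under 0.05, as had 1270 of all 13646 genes. Cry1 came nearest, with 6.31, 7.87, 6.48, 7.24 and 6.85 in KO colon and 8.05, 8.19, 7.83 and 7.89 in WT colon. KO replicate 2 lay among the WT arrays and the others below them. The difference was -1.04 ± 0.26 (adjusted p = 0.0699), and it was called without KO 24 h replicate 2 (-1.27, adjusted p = 0.00785). Per2 was at 6.48, 5.72, 6.85, 4.10 and 4.18 in KO colon and at 5.99, 6.57, 8.27 and 7.30 in WT colon. Its difference of -1.57 ± 0.72 was not called (adjusted p = 0.503). The fit that includes batch gave 0.87 for Per2, of the opposite sign, and -0.28 for Cry1.

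In jejunum at 24 h, 1 of 8 genes was called, against 0.704% of all genes. Arntl was lower in KO, at 4.28, 4.58, 4.41, 7.15 and 5.19, against 7.04, 7.10, 7.0 and 7.15 in WT. KO replicate 4 had the WT level, and the other KO arrays lay well below it. The difference was -1.95 ± 0.42 (adjusted p = 0.0236). The call was lost when KO 24 h replicate 1, 2 or 3, or WT 24 h replicate 1, 3 or 4, was left out, with differences of -1.74 to -1.97 and adjusted p-values of 0.0516 to 0.0941, and at the second probe set (-0.98, adjusted p = 0.0785). Without KO 24 h replicate 4, Npas2 was called as well (-1.42, adjusted p = 0.00846). The batch term added a call for Per3 (2.22, adjusted p = 0.0141). Npas2 otherwise had a difference of -1.13 ± 0.31 (adjusted p = 0.102). Cry1 had 6.47 to 6.82 in KO jejunum and 7.38 to 7.83 in WT jejunum, which do not overlap, with a difference of -0.92 ± 0.31 (adjusted p = 0.206), which became -0.02 once batch was included in the fit. Per2 had 5.92, 5.77, 5.55, 3.59 and 4.69 in KO jejunum and 4.60 to 5.71 in WT jejunum, and the interval of its difference was -1.09 to 1.01. That fit gave 2.5 for Per2 (adjusted p = 0.166). Fasting genes moved with genotype here, with 2 of 4 called lower and a median difference of -2.57. Their array means were 6.14 to 7.95 in KO and 8.36 to 9.77 in WT. Glucocorticoid response genes also differed, with array means of 7.85 to 8.46 in KO and 8.87 to 9.34 in WT. In colon at 24 h the array means of fasting genes were 6.20 to 7.02 in KO and 7.02 to 8.02 in WT. Those of glucocorticoid response genes were 8.85 to 9.22 in KO colon and 9.16 to 9.56 in WT colon. The part of either list in the Arntl result was not tested.

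**Figure D3:**
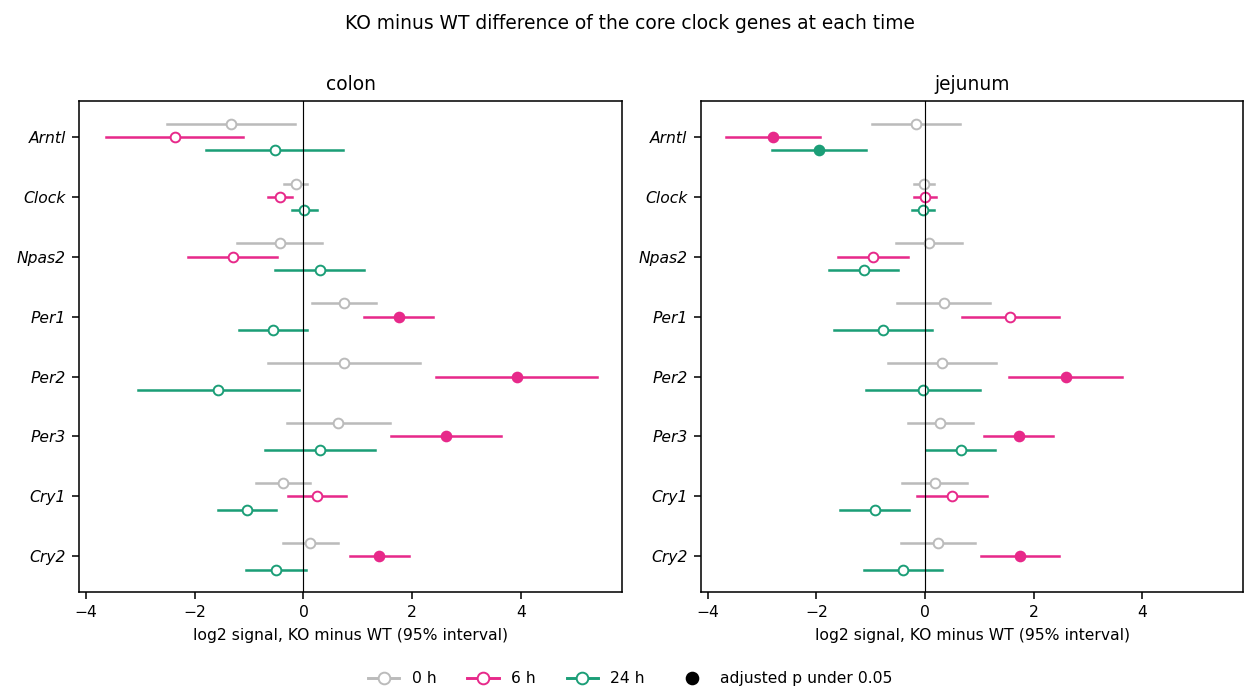
KO minus WT difference in log2 signal (x axis) for each gene (y axis) in colon and jejunum at 0, 6 and 24 h, with 95% intervals from the limma fit and filled points where the adjusted p was under 0.05. Filled points lie to the right of 0 at 6 h for Per1, Per2, Per3 and Cry2 in colon and for Per2, Per3 and Cry2 in jejunum, and to the left for Arntl in jejunum at 6 and 24 h.

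Changes with time were then read within each genotype. In KO colon no core clock gene was called at 6 h against 0 h, where 1.48% of all genes were called, and none at 24 h against 0 h, where 0.183% were. At an unadjusted p under 0.05 there were 3 and 1 of them, and 1793 and 1078 of all 13646 genes. Cry2 at 6 h was 0.73 higher than at 0 h (adjusted p = 0.163) and was called without KO 0 h replicate 2 (0.95, adjusted p = 0.0499), the array with the lowest Arntl of its group. Between 24 h and 6 h, 2 of 8 genes were called in KO colon, against 1.29% of all genes. Skeletal muscle genes had array means of 2.99 to 4.63 at 24 h and 5.17 to 6.96 at 6 h there, and their part was not tested. Clock was higher at 24 h, with 8.45, 8.62, 8.67, 8.51 and 8.63, against 8.11, 8.24, 8.08, 7.79 and 8.39 at 6 h. The change of 0.45 ± 0.10 (adjusted p = 0.0293) is small, and it was lost without KO 6 h replicate 1, 3 or 4 or KO 24 h replicate 2, 3 or 5 (0.37 to 0.45, adjusted p = 0.056 to 0.0772) and at the second probe set (0.25, adjusted p = 0.298). Per1 was lower at 24 h, with 5.72, 6.08, 6.01, 5.18 and 5.72, against 6.44, 6.90, 7.12, 7.85 and 6.75 at 6 h. The change of -1.27 ± 0.29 (adjusted p = 0.0279) was lost without KO 6 h replicate 3 or 4 or KO 24 h replicate 1, 4 or 5 (-1.06 to -1.27, adjusted p = 0.0525 to 0.0781), and without a filter on low signal (adjusted p = 0.0525). Cry2 had a change of -0.96 ± 0.25 (adjusted p = 0.0544) and was called with batch as a term (adjusted p = 0.0451).

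In KO jejunum, 2 of 8 genes were called at 6 h against 0 h, where 0.66% of all genes were. Arntl was lower at 6 h, at 3.41 to 4.40, against 5.81, 7.22, 7.23, 6.52 and 7.11 at 0 h. The groups did not overlap, and the change of -2.91 ± 0.42 (7.54-fold lower, adjusted p = 0.000436) kept its call without each array in turn. It was not called at the second probe set (-0.35, adjusted p = 0.624). Per3 was higher at 6 h, with 3.33 to 5.32, against 4.39 on KO 0 h replicate 1 and 2.72 to 2.90 on the others. The change of 1.44 ± 0.31 (adjusted p = 0.0275) was lost without KO 6 h replicate 1, 4 or 5 or KO 0 h replicate 2, 3, 4 or 5 (1.19 to 1.38, adjusted p = 0.0535 to 0.134), and was 1.75 without KO 0 h replicate 1 (adjusted p = 0.00058) and 1.86 without KO 6 h replicate 3 (adjusted p = 0.000485). Cry2 had a change of 1.39 ± 0.35 (adjusted p = 0.0638), and it was called at 1.70 without KO 0 h replicate 1 (adjusted p = 0.00537) and at 1.64 without KO 6 h replicate 3 (adjusted p = 0.0396).

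At 24 h against 0 h, Arntl alone was called in KO jejunum, against 0.689% of all genes, at -1.65 ± 0.40 (adjusted p = 0.0475). That call was lost without KO 24 h replicate 1, 2, 3 or 5 or KO 0 h replicate 2, 3, 4 or 5 (-1.45 to -1.72, adjusted p = 0.0697 to 0.157). It was also lost without the arrays that stood apart (-1.54, adjusted p = 0.127), without the low-signal filter (adjusted p = 0.088), at the second probe set (-0.35, adjusted p = 0.578) and without a variance trend (adjusted p = 0.0518). Between 24 and 6 h, 0 of 8 genes were called in KO jejunum, against 0.117% of all genes. An unadjusted p under 0.05 was reached by 4 of the 8, and by 1319 of all 13646 genes. Per3 was called there without KO 6 h replicate 3 (-1.46, adjusted p = 0.025) and at its second probe set (-1.66, adjusted p = 0.0456), against -1.04 (adjusted p = 0.215) with all arrays.

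In WT mice 1 core clock gene per tissue was called, Per2 in colon and Cry1 in jejunum, both between 24 and 6 h. In WT colon none was called at 6 h against 0 h, where 2.18% of all genes were, or at 24 h against 0 h, where 5.29% were. Each time 1 of them had an unadjusted p under 0.05, as had 1950 and 2740 of all 13646 genes. Per2 had 3.05, 2.45, 4.18 and 3.88 at 6 h, against 6.87, 4.79, 7.06, 4.66 and 4.26 at 0 h. All 4 arrays at 6 h lay below those at 0 h, but the change of -2.14 ± 0.72 was not called (adjusted p = 0.134). At 24 h Per2 had 5.99, 6.57, 8.27 and 7.30, and against 6 h it was 3.64 ± 0.76 higher (12.5-fold, adjusted p = 0.0366), the 1 of 8 genes called, against 0.242% of all genes. The 6 h value near the floor, 2.45, limits this fold too. That call was lost without WT 6 h replicate 1, 2 or 5 or WT 24 h replicate 2, 3 or 5 (3.23 to 3.80, adjusted p = 0.0675 to 0.139), at the second probe set (2.74, adjusted p = 0.0742) and without the low-signal filter (adjusted p = 0.077).

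In WT jejunum none was called at 6 h against 0 h, where 0.432% of all genes were, or at 24 h against 0 h, where 1.4% were. Each time 2 of them had an unadjusted p under 0.05, as had 1236 and 2206 of all 13646 genes. Per2 had 3.52, 3.52, 3.19, 3.98 and 3.26 at 6 h, against 5.47, 3.89, 5.71, 4.33 and 4.03 at 0 h, and the groups overlapped. The change was -1.19 ± 0.48 (adjusted p = 0.432), and with the replicate number as a block the adjusted p was 0.387. According to the design text each array came from a different mouse, so the number is not a pairing by animal. Cry1 was higher at 24 h, with 7.55, 7.83, 7.38 and 7.71, against 6.52, 5.48, 5.90, 6.93 and 6.70 at 6 h, and was the 1 of 8 genes called, against 0.755% of all genes. The change of 1.31 ± 0.31 (adjusted p = 0.0426) was lost without WT 6 h replicate 1, 2 or 3 or any 1 of the WT 24 h arrays (1.10 to 1.39, adjusted p = 0.0561 to 0.0923), without the arrays that stood apart (1.24, adjusted p = 0.0656) and without the low-signal filter (adjusted p = 0.0681). Per2 was 1.65 ± 0.51 higher (adjusted p = 0.128), with 4.60 to 5.71 at 24 h and 3.19 to 3.98 at 6 h, and was called with batch as a term (adjusted p = 0.047).

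Whether the time courses differed between genotypes was tested directly, by taking the change since 0 h in WT off the change since 0 h in KO. No core clock gene was called at 6 or 24 h in either tissue. In limma, 0.022% of all genes were called in colon at 6 h and 0.0293% at 24 h, and 0.0% in jejunum at both times, where 677 and 694 genes had an unadjusted p under 0.05. The largest such values among the 8 genes at 6 h were 3.18 ± 0.99 for Per2 in colon (adjusted p = 0.252) and -2.64 ± 0.58 for Arntl in jejunum (adjusted p = 0.388), which was 0.05 at the second Arntl probe set. At an unadjusted p under 0.05 there were 4 of 8 in colon and 5 of 8 in jejunum at 6 h, and 2 and 3 at 24 h. Over all genes in colon, 1479 of 13646 reached that p at 6 h and 1116 at 24 h. Without KO jejunum 0 h replicate 1, Arntl (-2.88, adjusted p = 0.0419) and Per3 (1.76, adjusted p = 0.0465) were called at 6 h, and the batch term, which leaves out that array here, gave the same calls.

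The level of each gene over the 6 groups of a tissue ran in the following order. Arntl in colon was highest in WT at 6 h (7.65 ± 0.0638, SD) and lowest in KO at 6 h (5.28 ± 0.455), and in jejunum highest in WT at 24 h (7.07 ± 0.0639) and lowest in KO at 6 h (3.86 ± 0.427). Clock kept within 8.12 ± 0.222 in KO colon at 6 h and 8.57 ± 0.0914 in KO colon at 24 h, and within 7.84 ± 0.18 in KO jejunum at 24 h and 8.02 ± 0.141 in WT jejunum at 0 h. Npas2 was lowest in KO at 6 h in both tissues, at 5.71 ± 0.291 in colon and 5.94 ± 0.246 in jejunum, and highest at 7.02 ± 0.192 in WT colon at 6 h and 7.37 ± 0.191 in WT jejunum at 24 h. Per1, Per2, Per3 and Cry2 were all highest in KO at 6 h in both tissues. In colon these means were 7.01 ± 0.531, 7.31 ± 0.715, 6.74 ± 0.492 and 7.13 ± 0.181, and in jejunum 5.16 ± 0.924, 6.08 ± 0.485, 4.58 ± 0.869 and 6.50 ± 1.00, in that order of genes. All 4 were lowest in WT at 6 h in both tissues, where Per3 in jejunum stood near the floor at all WT times (2.86 ± 0.0319, 2.86 ± 0.089 and 2.88 ± 0.0206 at 0, 6 and 24 h). Cry1 was highest in WT at 24 h in both tissues (7.99 ± 0.161 in colon, 7.62 ± 0.197 in jejunum), and lowest in KO colon at 24 h (6.95 ± 0.626) and in WT jejunum at 6 h (6.31 ± 0.601). Neighbours in these orders overlapped in their arrays, with 1 exception, Cry1 in colon, where all WT 24 h arrays lay above those of WT 0 h, the next group.

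Arrays of 1 group often differed among themselves in the clock genes. The median SD of the 8 genes was 0.789 in KO colon at 0 h, where the median SD over all genes was 0.148, and 0.739 in KO colon at 24 h, against 0.158. In WT colon at 6 h it was 0.122, against 0.123 over all genes, with Per2 at 0.787 and Per1 at 0.652 above the others. In jejunum the median SD of the 8 genes lay between 0.194 in WT at 24 h and 0.657 in KO at 0 h, and the medians over all genes lay between 0.156 and 0.24. KO colon at 24 h shows how the genes varied together. Replicates 1 and 3 had Arntl at 5.0 and 5.61, Per3 at 6.16 and 6.31 and Npas2 at 5.89 and 5.94. Replicates 2, 4 and 5 had Arntl at 7.05 to 7.81, Per3 at 4.25 to 4.69 and Npas2 at 7.40 to 7.58. In KO jejunum at 24 h, replicate 4 had Arntl at 7.15, Per3 at 2.87 and Npas2 at 7.41, and the other 4 arrays had Arntl at 4.28 to 5.19, Per3 at 3.21 to 4.0 and Npas2 at 5.63 to 6.34.

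Across arrays Arntl ran opposite to the Per genes and Cry2, given here as a description over 28 arrays per tissue that share their groups and batches. In colon Npas2 did so too, with r = -0.86 with Per3, -0.81 with Cry2, -0.80 with Per2 and -0.62 with Per1. Clock in colon ran from r = -0.75 with Per3 to -0.38 with Per2. Arntl in colon had r = -0.72 with Per1 and -0.63 with Per2. In jejunum the r values of Clock and Npas2 lay closer to 0 than those of Arntl, gene by gene. Clock there ran from r = -0.29 with Per3 to -0.13 with Per2. Npas2 had r = -0.57 with Per3, -0.33 with Per2, -0.20 with Cry2 and -0.14 with Per1. Arntl in jejunum had r = -0.60 with Per2 and -0.41 with Per1. Arntl and Per3 had r = -0.91 in colon and -0.87 in jejunum, and r = -0.86 and -0.67 after each group's mean was taken off. Arntl and Npas2 had r = 0.82 in colon and 0.78 in jejunum. Arntl and Cry2 had r = -0.80 and -0.61, and Per2 and Cry2 had r = 0.84 and 0.77. Cry1 followed Arntl weakly, at 0.38 and 0.24, and in jejunum it followed Per2 more closely (0.53). Clock and Arntl had r = 0.69 in colon and 0.47 in jejunum.

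**Figure D4:**
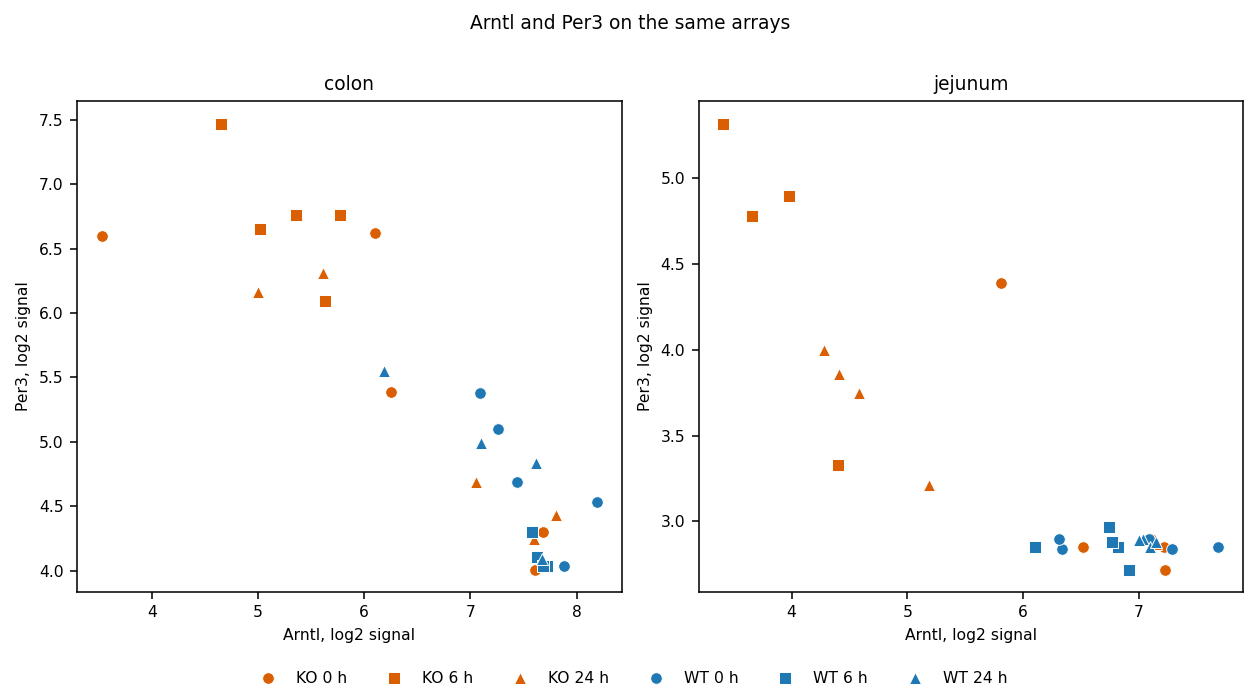
Per3 (y axis) against Arntl (x axis), both as log2 signal, on every array of colon and of jejunum, with KO in orange, WT in blue and the time as the shape of the point. KO 6 h arrays hold low Arntl and high Per3, WT 6 h arrays hold high Arntl and low Per3, and in colon the KO 0 h and KO 24 h arrays are spread over a wide range of Arntl, at 3.53 to 7.81.

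Colon and jejunum arrays that carried the same group and number were compared through their deviation from the group mean, over 26 such pairs. Per2 had r = 0.71 over these pairs (Spearman's rho 0.68), and 0.725% of 12826 genes had an r at least as high. Per1 had r = 0.64, which 1.75% of genes reached, and Per3, Cry2 and Cry1 had 0.45, 0.41 and 0.37. Arntl had r = 0.24 and Clock -0.22, and the median over all genes was 0.13. For Per2, r was 0.88 over the 13 pairs of the batch that holds the WT arrays, 0.49 over the 13 pairs of the other batch, and 0.61 without the 2 pairs farthest out. WT 0 h replicates 1 and 3 are an example, with Per2 at 6.87 and 7.06 in colon and 5.47 and 5.71 in jejunum, and their group's other arrays at 4.26 to 4.79 in colon and 3.89 to 4.33 in jejunum. According to the design text every array came from a different mouse, so these are not given as tissues of 1 animal.

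Other genes of the clock were read from lists grouped by role. At 6 h in KO colon against WT colon, 3 of 4 PAR-bZIP factors and Nfil3 were called higher, 2 of 4 tested further E-box targets were, and 0 of 3 tested REV-ERB and ROR factors. In jejunum these counts were 3 of 4, 4 of 4 and 1 of 3, all higher. Over all genes at 6 h, 0.879% were called in colon and 2.14% in jejunum. Hlf, an activator at D-boxes, had 5.68 ± 0.283 in KO colon and 3.36 ± 0.201 in WT colon (SD), a difference of 2.32 ± 0.42 (adjusted p = 0.00576). Usp2, a ubiquitin protease under clock control, was higher by 1.93 ± 0.32 in colon (adjusted p = 0.00263) and by 1.45 ± 0.28 in jejunum (adjusted p = 0.00682). Bhlhe40, an E-box repressor, was higher by 0.73 ± 0.13 in colon (adjusted p = 0.00609) and by 1.38 ± 0.24 in jejunum (adjusted p = 0.00238). Dbp in jejunum was at 9.71 ± 0.153 in KO and 4.31 ± 0.648 in WT (SD), a difference of 5.40 ± 0.73 (adjusted p = 0.000199). Tef, Hlf and the kinase Wee1 were also higher in jejunum, by 3.16, 1.93 and 1.36, and so was the REV-ERB gene Nr1d2, by 2.18 ± 0.43 (adjusted p = 0.00799). Nfil3, the repressor at D-boxes, had differences of -1.46 in colon and -1.25 in jejunum at 6 h and was not called (adjusted p = 0.199 and 0.156). None of the 6 tested clock protein kinases and ubiquitin ligases, of the 2 Timeless and Tipin genes or of the 5 paralogs and interactors was called at 6 h in either tissue.

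At 24 h the REV-ERB genes and Nfil3 were among those called between genotypes. Nr1d1, the REV-ERB repressor of Arntl, was higher in KO jejunum by 4.09 ± 0.63 (7.24 ± 0.446 in KO and 3.15 ± 0.44 in WT, SD, adjusted p = 0.000947). In colon its difference at 24 h was 2.91 ± 0.58 (adjusted p = 0.0147), and at 6 h it was 0.97 ± 0.58 (adjusted p = 0.52). Nr1d2 and Dbp were higher in KO jejunum at 24 h by 2.58 and 4.21 (adjusted p = 0.00256 and 0.00352), and Nfil3 was lower by -2.85 ± 0.46 (adjusted p = 0.00184). Arntl was the 1 core gene called in KO jejunum at 24 h, and it was lower. In colon at 24 h the difference of Arntl was -0.53 ± 0.61 and was not called (adjusted p = 0.875). The part of Nr1d1 in the Arntl values was not tested. At 0 h, Rora (0.58 ± 0.12, adjusted p = 0.0123) and Bhlhe40 (0.47 ± 0.13, adjusted p = 0.047) were higher in KO colon, and no gene of these lists was called in jejunum.

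The genes most like Arntl and Per2 over the 28 arrays of a tissue were named by Pearson's r, as a description over arrays that share groups and batches. The core clock genes themselves, and genes with a provisional or lower-case symbol, were left out of this ranking. In colon the lowest r with Arntl belonged to Nr1d2 (-0.94), Ciart (-0.93), Dbp (-0.93), Tef (-0.91), Tns4 (-0.89) and Hlf (-0.86), of which all but Tns4 are clock genes of the lists. The highest belonged to Slc34a2 (0.92), a phosphate carrier, and to Cldn8, Ddc, Leo1, Zfand5 and Denn2b (0.84 to 0.87). In jejunum Dbp (-0.92), Tef (-0.91) and Nr1d2 (-0.90) were again among the 6 lowest, with Cemip, Sult2b1 and Inpp5a (-0.87 to -0.83), and Denn2b (0.92), Arrb1, Dab1, Nol4l, Tmprss4 and Sgpp2 were the highest. With Per2, the highest r in colon was that of Lonrf1 (0.86), followed by Usp2, Tef, Kyat1, Tspan4 and Pus7, and the lowest was that of Hao2 (-0.87), followed by Eln, Lox, Il18, Col5a3 and Tsc22d4. In jejunum Clca4a (0.83), Ly6m, Bnip3, Lgals3, Gclc and Hlf were highest and Pnp (-0.74), Dab1, Pigr, Atrn, Slc25a3 and Arhgef2 lowest. The median r of the genes so ranked was 0.04 with Arntl in colon and 0.03 in jejunum.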

How the data were processed

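Total RNA of whole colon and whole jejunum was hybridised to 56 Affymetrix mouse arrays of 45101 probe sets, 1 array per sample. The authors deposited normalized log2 signals in a table per tissue, and GCRMA and RMA are named for them, per the submitters' processing notes, without a version. The 55 columns that could be matched to a sample equalled the series' value table, which was used for all 56 arrays, and 1 column was not matched and not used. The batch of KO colon 24 h replicate 3 was therefore taken by elimination. Genes came from the platform annotation, in which 34958 probe sets had 1 gene, 932 had several and 9211 had none, and 34754 were matched by gene ID to the RefSeq table. Each gene was read from its single-gene probe set with the highest mean in the tissue, and a filter on low signal dropped the lowest 25% of genes by mean.

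Each tissue was fitted in limma 3.58.1 (R 4.3.3) with 6 group means, 1 spread pooled over them and a variance trend, and p-values were Benjamini-Hochberg adjusted over 13646 genes within each comparison, with a threshold of 0.05. The scripts were tested on simulated data. Deviations of same-numbered arrays from their group means were correlated (r over 0.1) in 15 of 65 pairs in colon and 22 of 65 in jejunum. In 1 of 15 pairs of jejunum groups, WT at 0 and 6 h, all 5 numbers passed (r = 0.151 to 0.471), and in 0 of 15 in colon. Alternatives were no filter on low signal, batch as a term, a replicate block, the second probe set of a gene, no variance trend, arrays centred on their median, and each array left out. Leaving out the arrays that stand apart was added after seeing the data. The members, the gene lists and the tests were chosen with earlier results of these data known. All members were named in every comparison. Of the other clock lists, genes called in a comparison could be named, and Nfil3 and Nr1d1 are also given where they were not called. The 6 genes with the highest and the 6 with the lowest r were named for Arntl and for Per2. Core clock genes and genes with a provisional or lower-case symbol were left out there.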

Additional observations from a re-analysis of the deposited data

Results flagged for a closer look

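In 3 of the 96 groups of arrays examined (8 genes in 12 groups), 1 array lay far from the others of its group, and chance alone gives about 1 in 20. Arntl on WT jejunum 6 h replicate 2 was 6.10, against 6.74 to 6.92 on the other 4 arrays. Per2 on KO jejunum 6 h replicate 3 was 5.36, against 6.21 to 6.38 on the others. Per3 on KO jejunum 0 h replicate 1 was 4.39, against 2.72 to 2.90 on the others, and this is the KO array that lay in the batch of the WT arrays.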

How the results depend on the processing

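No called difference of a core clock gene reversed its direction under the alternatives run. Differences that were not called did: 13 of 176 with batch as a term (in colon at 24 h KO against WT, Per2 0.87 and Npas2 -0.79, against -1.57 and 0.30, and in jejunum Per1 0.51 and Cry2 1.14, against -0.78 and -0.41), 17 of 110 at the second probe set, 78 of 1952 with 1 array left out, 6 without the arrays that stood apart, 5 after median centring and 4 with the replicate block. The calls between KO and WT at 6 h were all kept without each array in turn, and the counts then ran from 4 to 5 in each tissue. In colon the count of called core clock genes at 6 h between genotypes was 1 with batch as a term, against 4 without it, where Cry2 was 2.16, Per1 2.15 and Per3 4.17. Counts at the second probe set leave out Per1, Cry1 and Cry2, which have 1 probe set each. In jejunum that count was 2 at 6 h, since Cry2 was left out and Arntl was -0.16. Over all genes, 17 (batch term) were called in colon against 120, and 744 (batch term) and 589 (without the arrays that stood apart) in jejunum against 292.

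Counts in other comparisons moved by 1 or 2 genes. Without the low-signal filter, KO colon 24 h against 6 h had 1 gene in place of 2, and WT colon 24 h against 6 h, KO jejunum 24 h against 0 h and WT jejunum 24 h against 6 h had 0 in place of 1. At the second probe set the same 4 comparisons had 0 (in WT jejunum because Cry1, the gene called, was left out), KO jejunum 6 h against 0 h had 1 in place of 2, KO jejunum 24 h against 6 h had 1 in place of 0, and KO against WT jejunum at 24 h had 0 in place of 1. Batch as a term gave 3 in place of 2 in KO colon 24 h against 6 h and in KO jejunum 6 h against 0 h (Cry2 added in both), 5 in place of 4 between genotypes in jejunum at 6 h, 2 in WT jejunum 24 h against 6 h, 1 between genotypes in jejunum at 0 h, 2 at 24 h, and 2 for the difference in time course in jejunum at 6 h. Without the arrays that stood apart, and for KO jejunum 24 h against 0 h also without a variance trend, KO jejunum 24 h against 0 h and WT jejunum 24 h against 6 h had 0. With each array left out in turn, counts ran from 0 to 1 for KO colon 6 h against 0 h, WT colon 24 h against 6 h, KO jejunum 24 h against 0 h and against 6 h, WT jejunum 24 h against 6 h and KO against WT colon at 24 h. They ran from 0 to 2 for KO colon 24 h against 6 h, for KO against WT jejunum at 24 h and for the jejunum time course at 6 h, and from 1 to 3 for KO jejunum 6 h against 0 h. Other causes were not tested.

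By the same-number check, only WT jejunum at 0 and 6 h had every r over 0.1, and the replicate block left their 0 called core clock genes at 0. Elsewhere it gave 0 calls in place of 1 for WT colon 24 h against 6 h (Per2 3.28, adjusted p = 0.0843), KO jejunum 24 h against 0 h (Arntl, adjusted p = 0.0643) and WT jejunum 24 h against 6 h (Cry1 1.27, adjusted p = 0.059), and changed no other member call. Signal near the array floor limits Per3 in jejunum.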
